A study of Mus musculus with 18 samples.

Results

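The comparison set terminal bronchiolar epithelial cells of Cebpa d/d mice against those of control mice at 0 hr, and its members were the 3 arrays of each genotype at that time, 6 of the 18 arrays in the series. The other 12 arrays came from the same genotypes at 3 and 72 hr after injury with naphthalene, a compound that poisons club cells of the small airways. The strain of all mice was a mixture of FVB/N with C57BL/6, and the 0 hr mice carried the label of naphthalene injury with a duration of 0 hr. Whether they received an injection of vehicle, which Cre line and promoter were used, which part of Cebpa the d allele alters and which alleles the control mice carried are not given in the sources used here. Replicates carry the numbers 1 to 3 without a statement that each was a separate animal or pool, and the p-values can therefore rest partly on technical spread. By Xist and Y-linked transcripts 1 of 3 arrays in each 0 hr group was female. Each value was a log2 RMA value, a background-corrected, normalized level that can be compared between arrays for the same gene but not between genes.

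Cebpa encodes C/EBP alpha, a transcription factor that drives late steps of differentiation in liver, fat, myeloid cells and lung epithelium. In the airways it is found in club cells, which secrete protective proteins and metabolize foreign compounds, and in the alveoli in type 2 cells, which make surfactant. Its relatives Cebpb and Cebpd bind the same DNA motif and are induced in inflammation and injury. Ciliated cells, the other main cell type of the terminal bronchiole, move mucus by means of motile cilia built on a core of microtubules and dynein motors.

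The Cebpa probe set (10552140) read 7.89, 10.07 and 10.17 in control replicates 1 to 3 and 8.27, 8.11 and 7.83 in the Cebpa d/d arrays. The array labelled control 0 hr replicate 1 therefore lay inside the Cebpa d/d range, while both other control arrays lay far above every Cebpa d/d array. The difference with all arrays was -1.31 ± 0.42 (SE, adjusted p = 0.309), and without that array it was -2.05, which is given with no test because the array was left out for its Cebpa level. Each SE and p-value here and below rests on a spread pooled over all 6 groups of the series, not on the 0 hr arrays alone. Cebpb read 7.86, 7.83 and 7.63 in control and 8.13, 7.81 and 7.74 in Cebpa d/d arrays, and Cebpd read 7.96, 8.19 and 7.98 against 8.87, 7.88 and 8.22. Neither relative passed the test, with differences of 0.12 ± 0.12 (adjusted p = 0.852) and 0.28 ± 0.24 (adjusted p = 0.813). The array labelled control 0 hr replicate 1 was therefore kept in one set of counts and left out of another. Some genes whose call differed are given both ways. For several others only the difference without that array is given, and none of those passed with all arrays.

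In the comparison of all 6 arrays at 0 hr, 65 of 19938 genes (0.326%) were higher in Cebpa d/d and 2 (0.01%) were lower, at an adjusted p under 0.05 in limma. Without the array labelled control 0 hr replicate 1, 78 genes (0.391%) were higher and 75 (0.376%) were lower. The 75 include Cebpa, the gene for whose level that array was left out. The higher genes were largely shared: 54 passed in both comparisons, 11 only with all arrays and 24 only without that array. Of the lower genes 2 passed in both and 73 only without it. Leaving out that array thus moved the number of higher genes little and that of lower genes much, and the higher and lower genes were of different kinds. The split with all arrays also depended on the weight given to single arrays: limma with array weights called 158 higher and 197 lower. Both lower genes were lost with control replicate 3 or Cebpa d/d replicate 1 left out.

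Genes of heart muscle were the largest group of named function among the higher genes, 33 of 65 with all arrays. Cardiac muscle cells contract through sarcomeres, repeated units of actin and myosin filaments anchored to the giant protein titin, and in mice a sleeve of such cells also surrounds the pulmonary veins inside the lung. Of 71 measured genes on a list of cardiac muscle, 33 were higher and 0 lower with all arrays, and 34 were higher and 0 lower with the array labelled control 0 hr replicate 1 left out. The shares of all genes that were higher were 0.326% and 0.391%. The median difference of the list was 1.11 with all arrays and 1.09 without that array, against 0.02 over all genes in both cases. More or fewer cells of a type and more or less RNA per cell cannot be told apart in such samples. In 50 of the 71 genes all Cebpa d/d arrays lay above all control arrays, where 5.88% of all genes did so. The list was written with the earlier finding of muscle genes in view, so its count describes these arrays and is no independent evidence.

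Sarcomere genes common to the heart chambers made up the largest number, with 14 of 21 higher with all arrays. For this and the other roles below, the share of all genes that were higher with all arrays was 0.326%. Titin (Ttn, probe set 10483871) read 6.91, 7.66 and 5.93 in control and 9.92, 9.49 and 9.16 in Cebpa d/d arrays. All Cebpa d/d arrays lay above all control arrays, by a mean of 2.69 ± 0.31 (adjusted p = 0.000456), or 6.46-fold. The M-band protein gene Myom1, which ties myosin filaments together at the middle of the sarcomere, read 7.58, 7.66 and 7.63 in control and 8.79, 8.81 and 8.61 in Cebpa d/d arrays. The replicates of each group lay close together, the difference was 1.11 ± 0.10 (adjusted p = 0.000114), and it was the 1 gene of 194 examined by name that passed under every alternative processing. Myh6, the alpha myosin heavy chain, read 8.23, 8.83 and 5.80 in control and 10.94, 10.40 and 10.15 in Cebpa d/d arrays, a difference of 2.88 ± 0.53 (adjusted p = 0.0196). Myoz2, a Z-disc protein that binds calcineurin, and Xirp2, an actin-binding protein, were higher by 3.17 ± 0.55 (adjusted p = 0.0151) and 2.01 ± 0.23 (adjusted p = 0.00039).

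Heart chambers differ in the light chains of their myosin, and the list distinguished them. Myl3, the essential light chain of the ventricle, read 7.80, 7.63 and 6.78 in control and 10.40, 10.47 and 9.23 in Cebpa d/d arrays, with a difference of 2.63 ± 0.30 (adjusted p = 0.00039). It was the 1 of 5 ventricular genes that passed. Myl2, the regulatory light chain of the ventricle, read 4.69, 4.89 and 4.76 in control and 4.97, 4.76 and 4.81 in Cebpa d/d arrays. The groups overlapped and the difference of 0.07 had a 95% confidence interval of -0.17 to 0.30. All these Myl2 values lay below the 0 hr array medians of 6.52 to 6.62. Whether the probe set responds at so low a level was not examined.

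Genes of the atrium and the pulmonary vein were higher in places. Nppa, which encodes the hormone atrial natriuretic peptide, read 5.70, 5.66 and 5.76 in control and 9.31, 7.25 and 6.79 in Cebpa d/d arrays (difference 2.08 ± 0.40, adjusted p = 0.0269). The 3 control arrays were almost equal and the Cebpa d/d arrays were far apart. Myl7, the regulatory light chain of the atrium, read 8.97, 10.05 and 6.10 in control and 11.64, 11.51 and 10.71 in Cebpa d/d arrays. The groups did not overlap, but the control arrays were far apart and the difference of 2.91 ± 0.67 did not pass (adjusted p = 0.0918). Myl4, the essential light chain of the atrium, had a difference of 2.62 ± 0.65 that did not pass either (adjusted p = 0.126). Of the 9 genes of this role, 1 was higher with all arrays and 2 without the array labelled control 0 hr replicate 1, when the calcium pump regulator Sln was added (1.70 ± 0.37, adjusted p = 0.0437).

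Genes for calcium handling and excitation were higher in 7 of 11 cases and those for oxygen and energy supply in 8 of 14. Among the former, Pln, the inhibitor of the calcium pump of the sarcoplasmic reticulum, was higher by 2.42 ± 0.44 (adjusted p = 0.0196), and the ryanodine receptor Ryr2, the channel that releases calcium, by 1.39 ± 0.25 (adjusted p = 0.0169). Among the latter, the mitochondrial creatine kinase Ckmt2 was higher by 2.17 ± 0.38 (adjusted p = 0.0156) and the fatty acid carrier Fabp3 by 2.26 ± 0.33 (adjusted p = 0.00318). Of 7 heart transcription factors Tbx20 alone passed, with 5.10, 5.29 and 4.89 in control and 6.42, 6.48 and 5.78 in Cebpa d/d arrays. Nkx2-5 and Gata4, which act at the head of heart development, differed by 0.16 ± 0.09 (adjusted p = 0.654) and 0.10 ± 0.12 (adjusted p = 0.872).

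Hamp, which encodes the iron hormone hepcidin, made mainly by liver and also by heart, had the largest difference of any gene with all arrays. It read 6.83, 6.29 and 4.57 in control and 10.50, 9.94 and 8.26 in Cebpa d/d arrays. Every Cebpa d/d array lay above every control array, by a mean of 3.67 ± 0.53 (adjusted p = 0.00317), which is 12.7-fold. The SD of Hamp at 0 hr was 1.18 in control and 1.17 in Cebpa d/d arrays, against 0.27 to 0.61 in the later groups. The pooled SE is therefore smaller than the 0 hr arrays alone would give. Its near copy Hamp2 differed by 0.19 ± 0.17 (adjusted p = 0.822), and the probe sets of such copies can share signal.

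**Figure D1:**
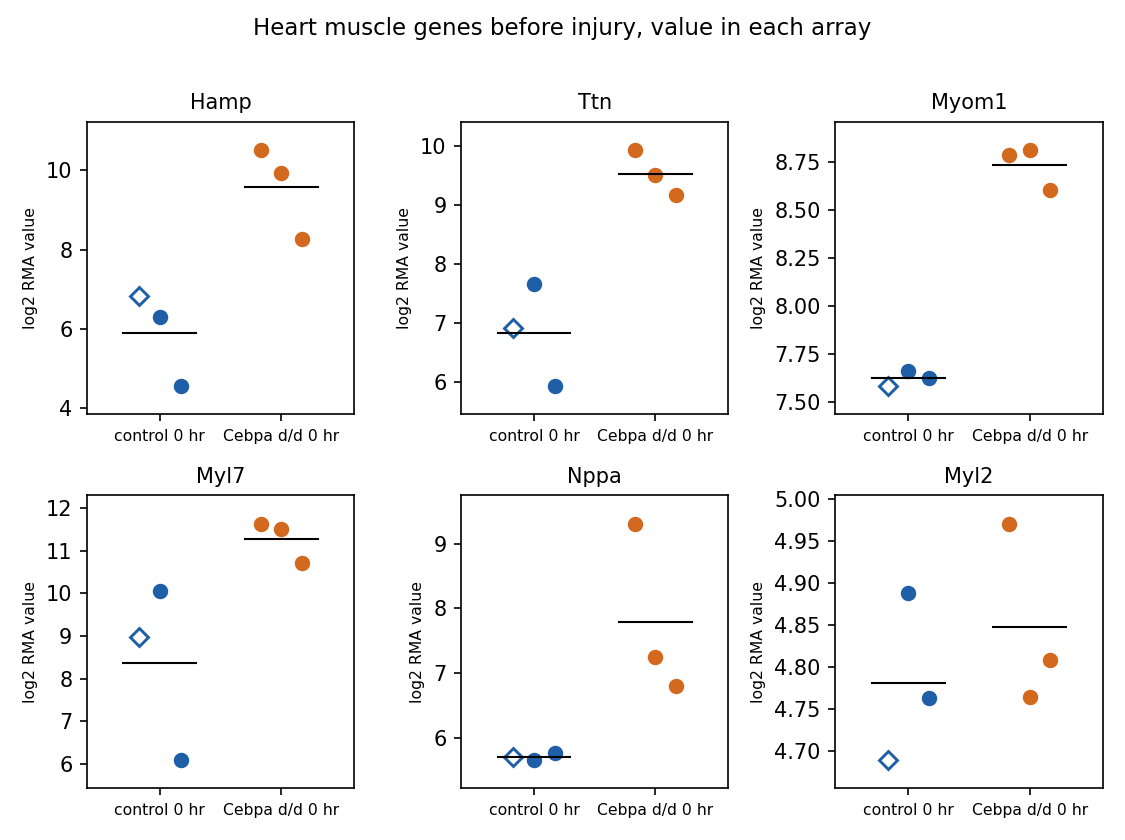
Log2 RMA value of 6 heart muscle genes in each control (blue) and Cebpa d/d (orange) array at 0 hr; the open diamond is the array labelled control 0 hr replicate 1 and the line is the mean of 3 arrays. Hamp, Ttn, Myom1, Myl7 and Nppa lay higher in all Cebpa d/d arrays, and Myl2 lay between 4.69 and 4.97 in both groups.

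The muscle signal moved as a block within single arrays. The mean of the 71 cardiac genes was 7.36, 7.61 and 6.85 in the control arrays and 8.75, 8.53 and 8.12 in the Cebpa d/d arrays at 0 hr. It lay between 6.86 and 7.20 in all 12 arrays at 3 and 72 hr, so 2 of the 3 control arrays at 0 hr also lay above every later array. The median difference between genotypes over the list was 0.04 at 3 hr and 0.01 at 72 hr. On a skeletal muscle list 0 of 18 genes passed with all arrays and 1 with the first control array left out, but all 18 differences were positive with all arrays, with a median of 0.35. The mean of the 18 genes was 6.16, 6.21 and 6.27 in control and 6.56, 6.36 and 6.89 in Cebpa d/d arrays, without overlap. Smooth muscle had 0 of 18 passing with all arrays, with a median of -0.01, and fibroblasts had 0 of 25. The part of cardiac tissue in the sampled material in this result was not tested.

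The spread behind these tests was uneven. Over the 33 higher cardiac genes the median SD at 0 hr was 0.527 among control arrays and 0.509 among Cebpa d/d arrays, against 0.113 to 0.269 in the groups at 3 and 72 hr, and the test pooled all 6 groups. With only the 0 hr arrays in the model 1 of the 67 genes passed. Without control replicate 3, the 0 hr array with the least muscle signal, 31 genes passed and 19 of them were cardiac. Without Cebpa d/d replicate 1, 2 or 3 the number was 30, 39 and 120. When a further array was left out beside the one labelled control 0 hr replicate 1, the number of 153 became 70 without control replicate 2, 11 without control replicate 3, and 33, 51 and 263 without Cebpa d/d replicates 1, 2 and 3.

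The remaining higher genes included more muscle genes that were not on the list, such as Smpx, Klhl31 and Txlnb, chosen here after their values were seen. Outside muscle, Tff2, a small trefoil peptide that stabilizes mucus, read 7.23, 7.43 and 6.40 in control and 8.37, 8.10 and 8.13 in Cebpa d/d arrays, a difference of 1.18 ± 0.21 (adjusted p = 0.0156). It was 1 of 25 mucous cell genes. Fabp4, a fatty acid carrier of macrophages, fat and small vessels, read 8.02, 7.64 and 7.15 against 10.04, 9.19 and 8.39 (1.60 ± 0.33, adjusted p = 0.0476). It was 1 of 21 macrophage genes. The fat cell hormone gene Adipoq read 6.15, 5.37 and 4.90 in control and 7.92, 7.29 and 5.53 in Cebpa d/d arrays, a difference of 1.44 ± 0.42 that did not pass (adjusted p = 0.244) and of 1.78 ± 0.44 with the first control array left out (adjusted p = 0.0860). Of 11 fat cell markers 0 passed with all arrays and 1 with that array left out. Their mean was 6.11, 6.12 and 5.87 in control and 6.75, 6.24 and 6.14 in Cebpa d/d arrays, with all Cebpa d/d arrays above all control arrays, and their median difference was 0.04.

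On the lower side, the 2 genes that passed with all arrays were both on the lists of cilia. Ift80, a subunit of the complex that carries cargo along the cilium, read 8.21, 8.26 and 8.56 in control and 7.70, 7.78 and 7.85 in Cebpa d/d arrays, a difference of -0.57 ± 0.10 (adjusted p = 0.0157). Efcab10, which encodes a protein with the EF-hand fold of calcium-binding proteins, read 9.02, 9.005 and 9.44 in control and 8.58, 8.56 and 8.38 in Cebpa d/d arrays (-0.65 ± 0.12, adjusted p = 0.0269). In both genes all Cebpa d/d arrays lay below all control arrays, the one labelled replicate 1 included.

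The ciliated cell list as a whole leaned the same way. Of 66 genes 65 had a negative difference, with a median of -0.49 against 0.02 over all genes, and in 26 the arrays did not overlap, where 5.48% of all genes were lower without overlap. With all arrays 1 of the 66 passed, where 0.01% of all genes were lower. Without the array labelled control 0 hr replicate 1 it was 7, where 0.376% of all genes were lower, and the list median was -0.65. The same lean was seen in each role: medians were -0.49 for the dynein arms that power the beat, -0.38 for factors that assemble them, -0.63 for radial spokes and the central pair, and -0.50 for tektins and other microtubule proteins. The 9 master regulators had a median of -0.10, and Foxj1, the factor that switches on motile cilia, read 7.25, 7.57 and 7.62 in control and 7.18, 7.22 and 7.25 in Cebpa d/d arrays (-0.26 ± 0.13, adjusted p = 0.616). Of the 36 genes of intraflagellar transport, which also serve non-motile cilia, 35 were negative with a median of -0.35, and Ift80 alone passed in either comparison.

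Rsph1, a radial spoke head protein, shows where the array labelled control 0 hr replicate 1 stood. It read 10.53, 11.06 and 11.44 in control and 10.37, 10.37 and 10.41 in Cebpa d/d arrays. The difference was -0.63 ± 0.18 with all arrays (adjusted p = 0.25) and -0.87 ± 0.16 without that array (adjusted p = 0.0199). The mean of the 66 genes read 8.33, 8.75 and 8.88 in control and 8.11, 8.13 and 8.36 in Cebpa d/d arrays. The array labelled control 0 hr replicate 1 was the lowest control array in 60 of the 66 genes, against 38.9% of all genes. The same list means at 3 hr were 8.05 to 8.72 in control and 8.23 to 8.52 in Cebpa d/d arrays, which overlapped, and at 72 hr 8.96 to 9.15 and 8.83 to 8.88, which did not. The higher cardiac and the lower ciliated signal were found in the same Cebpa d/d arrays, and the part of the one in the other was not tested.

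**Figure D2:**
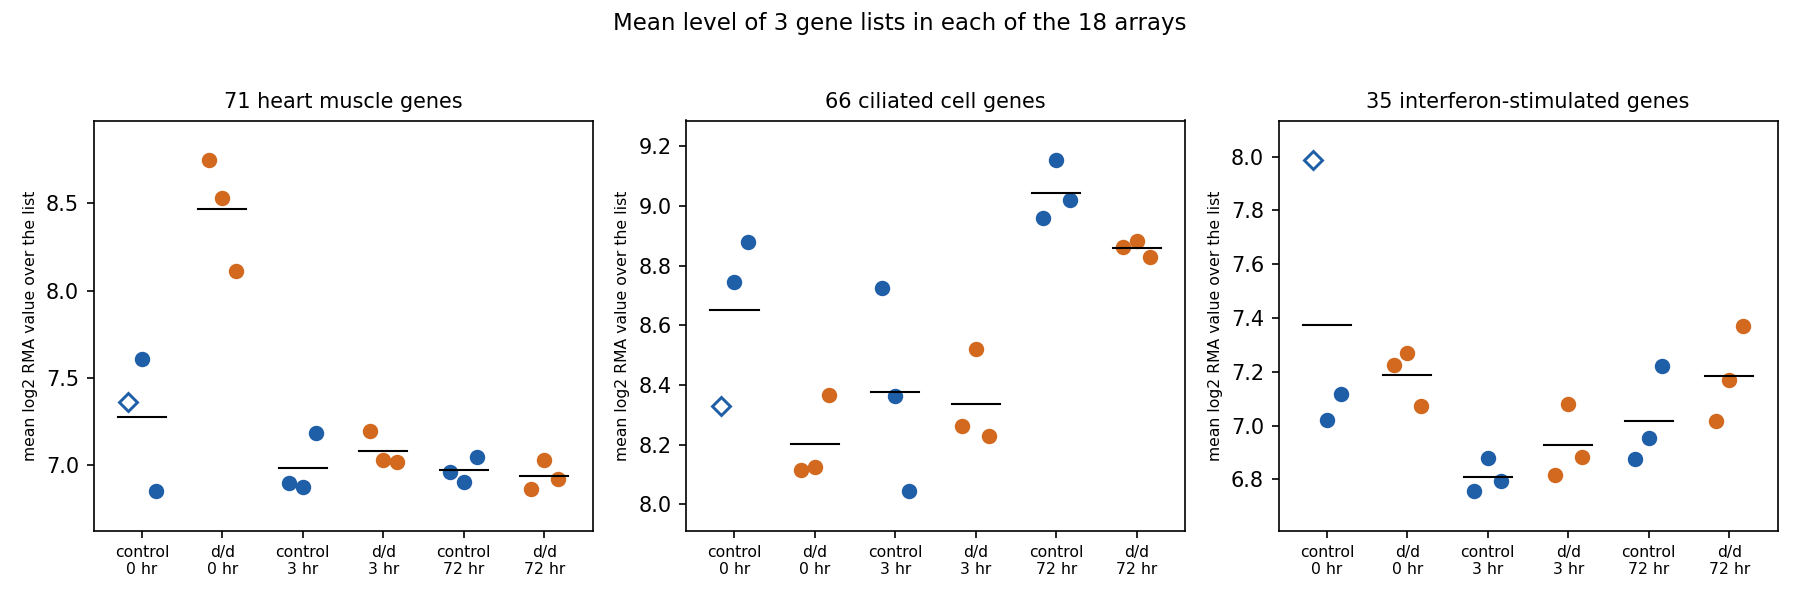
Mean log2 RMA value over 71 heart muscle, 66 ciliated cell and 35 interferon-stimulated genes in each of the 18 arrays, control in blue and Cebpa d/d in orange, with the mean of each group as a line. The heart genes stood out in the Cebpa d/d arrays at 0 hr (8.12 to 8.75), and the open diamond, control 0 hr replicate 1, was highest of all for interferon genes at 7.99.

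With the array labelled control 0 hr replicate 1 left out, a second set of lower genes appeared, with larger differences. Chil1, a chitinase-like protein secreted by epithelium and macrophages (probe set 10349968), read 6.99, 10.88 and 10.82 in control and 6.57, 7.33 and 7.36 in Cebpa d/d arrays. The difference was -2.48 ± 0.70 with all arrays (adjusted p = 0.215) and -3.77 ± 0.35 without that array (adjusted p = 0.000207). Control replicates 2 and 3 were nearly equal, and the array labelled replicate 1 lay among the Cebpa d/d arrays. Vnn1, a pantetheinase that recycles vitamin B5, read 6.34, 7.76 and 7.80 against 6.03, 6.38 and 6.37 (-1.52 ± 0.15 without that array, adjusted p = 0.000325). Vnn3, a related enzyme, was lower by 1.49 ± 0.27 without that array (adjusted p = 0.0177), where all control arrays lay above all Cebpa d/d arrays.

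Ttpa, the carrier protein of vitamin E, read 6.00, 7.58 and 7.67 in control and 6.33, 5.78 and 5.09 in Cebpa d/d arrays (-1.90 ± 0.30 without the array labelled control 0 hr replicate 1, adjusted p = 0.0094). C6, a component of the complement attack complex, read 6.96, 8.73 and 8.87 against 7.02, 7.29 and 7.52 (-1.52 ± 0.25 without that array, adjusted p = 0.0113). Gjb6, a gap junction connexin, read 6.26, 7.35 and 7.74 against 6.18, 6.01 and 6.43 (-1.34 ± 0.22 without that array, adjusted p = 0.00947). With all arrays none of these 3 genes passed, and in C6 the array labelled replicate 1 was the lowest of all 6.

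Genes on the list of alveolar type 2 cells were split. With the array labelled control 0 hr replicate 1 left out, 6 of 32 were lower and 1 was higher, while with all arrays 0 passed and the median was -0.02. Of all genes 0.376% were lower and 0.391% higher without that array. Lyz2, the lysozyme of type 2 cells and macrophages, read 10.21, 11.62 and 11.79 in control and 10.13, 11.04 and 10.05 in Cebpa d/d arrays (-1.30 ± 0.24 without that array, adjusted p = 0.0199). Lyz1 is a near-identical copy whose probe set can share signal with it, and it was lower by 1.68 ± 0.34 (adjusted p = 0.0308). The calcium-binding protein gene S100g (-0.91 ± 0.19, adjusted p = 0.0316), Bex2 (-1.24 ± 0.25, adjusted p = 0.0288), the peroxisomal oxidase-like gene Acoxl (-0.63 ± 0.13, adjusted p = 0.0382) and Chil1 were the others. For Acoxl the limma difference with all arrays was -0.50 (adjusted p = 0.168). This list was written with some of these genes already seen to be lower, so the count describes them and supports nothing.

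The 1 higher gene of that list was Egfl6, a secreted protein with EGF repeats. It read 10.22, 8.34 and 8.54 in control and 10.22, 9.94 and 10.03 in Cebpa d/d arrays, so that the array labelled control 0 hr replicate 1 equalled the highest Cebpa d/d array. The difference was 1.03 ± 0.38 with all arrays (adjusted p = 0.44) and 1.62 ± 0.28 without that array (adjusted p = 0.0138). The surfactant genes did not pass: Sftpc read 13.26, 13.14 and 13.15 against 13.23, 13.20 and 13.26, and the interval of its difference was -0.12 to 0.21. Sftpc lay near the highest value of any array, 13.93, and saturation was not examined. Sftpd, a surfactant collectin, had a difference of -0.37, and Sftpb and Sftpa1 had differences of -0.11 and 0.00.

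The 75 lower genes were then read in the other arrays. The array labelled control 0 hr replicate 1 took no part in choosing them, except that it was left out for its Cebpa level. Cebpa is among the 75, and the place of that array in Cebpa was thus fixed beforehand. The 6 arrays at 3 hr and the 6 at 72 hr entered the choice through the pooled spread, though not through their levels, and with only the 0 hr groups in the model 52 genes were lower instead of 75. Over the 75 genes the mean level was 8.40 and 8.52 in control replicates 2 and 3 and 7.45, 7.53 and 7.63 in the Cebpa d/d arrays, which reflects the choice. The array labelled control 0 hr replicate 1 read 7.70, and gene by gene it lay nearer the Cebpa d/d mean in 63 of the 75 and inside the Cebpa d/d range in 32. For the 78 higher genes, by contrast, it lay nearer the Cebpa d/d mean in 19 and inside the range in 11. That array thus lay nearer the mean of the other control arrays in most of the higher genes. In most of the lower genes it lay nearer the Cebpa d/d mean. The matching shares of all genes were not counted, so whether these counts are particular to the called genes is not known.

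Directions at the later times were counted beside those of all genes. Of the 75 lower genes, 60 were negative at 3 hr and 67 at 72 hr, and 53 at both, against 56%, 43.2% and 22.6% of all genes. Mean levels were 7.96 to 8.23 in control and 7.73 to 7.76 in Cebpa d/d arrays at 3 hr, and 8.45 to 8.60 and 8.08 to 8.22 at 72 hr, without overlap at either time. Of the 78 higher genes, 60 were positive at 3 hr, 50 at 72 hr and 39 at both, against 44%, 56.8% and 23.4% of all genes. Their mean levels overlapped at both times, with 6.44 to 6.67 in control and 6.67 to 6.81 in Cebpa d/d arrays at 3 hr, and 6.52 to 6.67 and 6.60 to 6.70 at 72 hr.

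A test on the later arrays gave a short list. In the model of 17 arrays 10 genes (0.0502% of all) were lower in Cebpa d/d at 3 hr, and 9 of the 10 were among the 75: Cebpa, Chil1, Vnn1, Ttpa, C6, Gjb6, S100g, Lyz1 and Lyz2. At 72 hr 18 genes (0.0903%) were lower, and 7 were among the 75: Cebpa, Lyz1, Lyz2, S100g, Bex2, Acoxl and Morn3. In the mean of both times, a contrast added after the values were seen, 29 genes (0.145%) were lower and 12 of them were among the 75. Cebpa, the gene for whose level the 0 hr array was left out, is counted in the 9, the 7 and the 12. Of the 78 higher genes 0 were higher at 3 hr (0.0251% of all genes) and 0 at 72 hr (0.01%) in that model. In the mean of both times it was 2, Egfl6 and Phyh, where 0.0702% of all genes were higher. The times share no arrays, but the model gives a gene the same estimate of spread at each time. With the array labelled control 0 hr replicate 1 in the model, which enters these contrasts through the spread alone, 15 genes (0.0752%) were lower in the mean of both times and 6 were among the 75: Acoxl, Bex2, Cebpa, Lyz1, Lyz2 and S100g.

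Values at the later times are given for 3 of these genes. S100g read 9.43, 9.40 and 9.85 in control and 8.17, 7.97 and 7.87 in Cebpa d/d arrays at 3 hr, and 10.65, 10.88 and 10.66 against 8.52, 9.11 and 8.51 at 72 hr. The difference was thus -0.91 at 0 hr without the array labelled control 0 hr replicate 1, -1.55 at 3 hr and -2.02 at 72 hr. Vnn1 had differences of -1.42 at 3 hr and -0.29 at 72 hr, with 7.18, 7.28 and 7.11 against 5.65, 6.01 and 5.66 at 3 hr, but 6.38, 6.36 and 6.72 against 6.29, 6.34 and 5.97 at 72 hr. Chil1 at 3 hr read 9.68, 9.78 and 9.24 in control and 7.29, 6.76 and 7.06 in Cebpa d/d arrays, and at 72 hr 7.62, 8.03 and 9.24 against 6.89, 7.12 and 7.09. The mean of its Cebpa d/d arrays was 7.08, 7.04 and 7.03 at the 3 times, while the control arrays lay between 6.99 and 10.88.

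**Figure D3:**
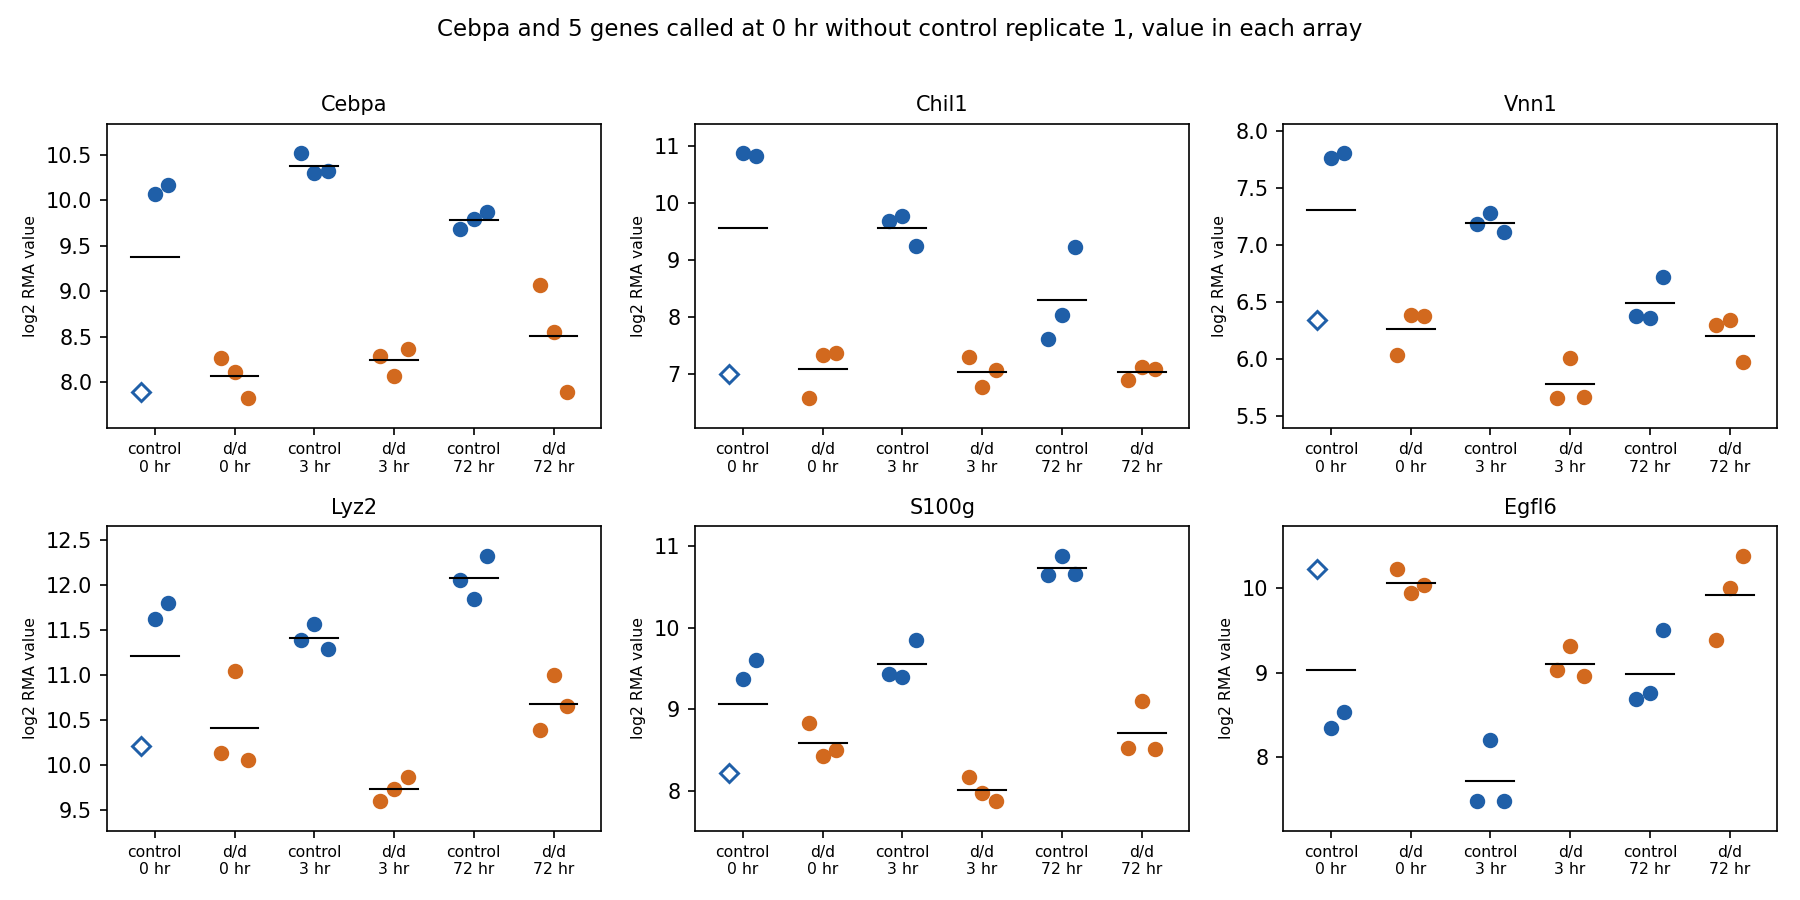
Log2 RMA value of Cebpa and of 5 genes that passed at 0 hr without control replicate 1, in each control (blue) and Cebpa d/d (orange) array at 0, 3 and 72 hr, with group means as lines. The open diamond, the array labelled control 0 hr replicate 1, lay nearer to the 0 hr Cebpa d/d arrays than to the other control arrays in the 5 panels other than Cebpa, for example at 6.99 for Chil1. Its Cebpa level is the value that singled it out. The 5 other genes did not pass with that array included, so its place in their panels is no independent evidence.

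**Figure D4:**
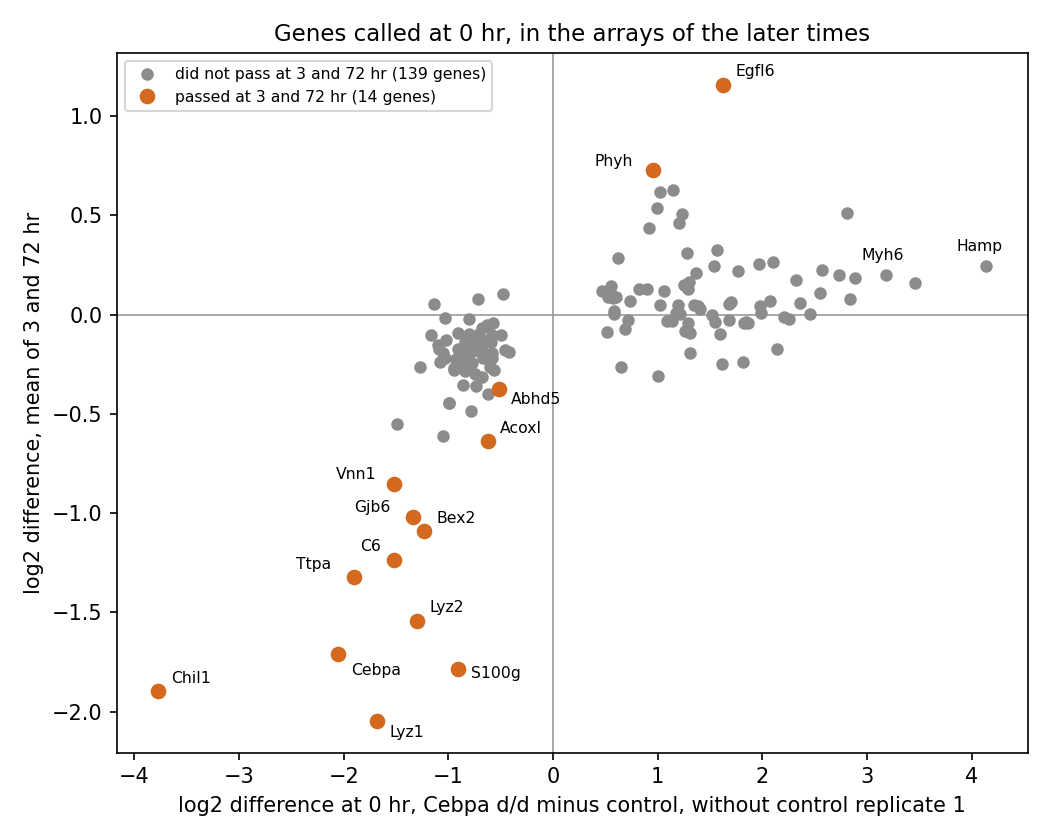
Each point is 1 of the 153 genes that passed at 0 hr without the array labelled control 0 hr replicate 1, with that log2 difference on the x axis and the mean log2 difference at 3 and 72 hr on the y axis. The genes in orange passed in the later arrays (12 lower, Cebpa among them, and 2 higher). Most higher genes, Hamp and Myh6 among them, lay near 0 at the later times.

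The genotype difference itself was compared between times. Between 3 hr and 0 hr it differed in 0 of 19938 genes in limma (0%), with 1365 genes (6.85%) at an unadjusted p under 0.05. Between 72 hr and 0 hr it differed in 19 genes (0.0953%), all more negative at 72 hr, of which 10 were on the cardiac list. With the array labelled control 0 hr replicate 1 left out, the 19 became 3 genes (0.015%). Among the other 0 hr arrays, omitting control replicate 3 gave 4 genes, and omitting the Cebpa d/d replicates in order gave 7, 4 and 48. Among the 72 hr arrays, omitting the control replicates in order gave 4, 4 and 9 genes, and omitting the Cebpa d/d replicates in order gave 3, 12 and 4. For 3 hr against 0 hr the number of 0 became 14 when control replicate 2 of 0 hr was omitted and 44 when Cebpa d/d replicate 3 of 0 hr was omitted. It became 1 when either control replicate 2 or Cebpa d/d replicate 3 of 3 hr was omitted. None of Chil1, Vnn1 and S100g passed in either comparison of times, and the lowest adjusted p values over both comparisons, with all arrays or with that array left out, were 0.0593 for Chil1, 0.0583 for Vnn1 and 0.182 for S100g.

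The array labelled control 0 hr replicate 1 was also apart from the other 0 hr arrays in interferon genes. The mean of 35 interferon-stimulated genes, which respond to viral signals, was 7.99 in it, 7.02 and 7.12 in the other control arrays and 7.07 to 7.27 in the Cebpa d/d arrays. It was the highest of the 6 arrays in 31 of the 35 genes, against 20.4% of all genes. Ifit1, an interferon-induced RNA-binding protein, read 9.04 in it, 5.76 and 6.08 in the other control arrays and 7.11, 6.88 and 6.42 in the Cebpa d/d arrays. In Muc5b and Pcp4, picked after their values were seen, it lay nearer the Cebpa d/d arrays than the other control arrays. The mucin gene Muc5b read 8.96 in it, 7.48 and 6.60 in the other control arrays and 8.53 to 8.63 in the Cebpa d/d arrays, and Pcp4 read 9.63, 7.62 and 7.43 against 9.46, 9.50 and 8.29. With that array left out neither gene overlapped between genotypes, where 12.9% of all genes were higher without overlap. The differences were 1.55 ± 0.46 for Muc5b (adjusted p = 0.169) and 1.56 ± 0.31 for Pcp4 (adjusted p = 0.0298), the latter being 1 of 18 smooth muscle genes. The part of the state of that sample in the results was not tested, and its genotype cannot be told from these values.

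Club cell genes did not pass in either comparison, 0 of 37, with a median of -0.09 with all arrays and -0.07 without the array labelled control 0 hr replicate 1. Over all genes 0.336% passed with all arrays and 0.767% without that array, so 0 in a list of this size says little. Negative differences numbered 28 of the 37 with all arrays and 22 without that array. In the xenobiotic metabolism role it was 17 of 18 and 12 of 18. Scgb1a1, the protein that club cells secrete most, read 12.66, 12.78 and 12.79 in control and 12.83, 12.82 and 12.84 in Cebpa d/d arrays, and the interval of its difference was -0.09 to 0.26. Cyp2f2, the cytochrome that turns naphthalene into its toxic form, read 13.31, 13.22 and 13.23 against 13.04, 13.18 and 13.16, with an interval of -0.39 to 0.14. Both lay near the top of the scale, which ended at 13.93, and saturation was not examined. Proteases (52 genes) and their inhibitors (45 genes) had 0 that passed in either comparison, with medians of 0.01 and 0.00 with all arrays. The shares of all genes given above apply here too, so 0 says little about either list. The elastase inhibitor gene Slpi differed by 0.07 with all arrays, with an interval of -0.49 to 0.63. Nkx2-1, which sets lung epithelial identity, differed by 0.01 with an interval of -0.21 to 0.22.

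Because the higher and the lower genes each moved as sets, the DNA before their start sites was read for the motifs of factors known for those tissues. The sequences came from the RefSeq table of GRCm38.p6, with 1 or more windows from 250 bases before to 50 bases after the start for 15614 of the 19938 genes. MEF2, a factor of muscle genes, binds a motif searched here as CTA, any 4 bases and TAG. On either strand it lay in the windows of 9 of 54 higher genes with an entry (16.7%), of 9 of 65 with the first control array left out (13.8%) and of 5 of 58 genes of the cardiac muscle list (8.62%), against 4.15% of all genes. Ttn (chr2:76982548-76982797, minus strand) and Myoz2 (chr3:123034988-123035237, minus strand) are shown as 2 of the 9, with the 250 bases before the start and the motif in capitals.
Ttn: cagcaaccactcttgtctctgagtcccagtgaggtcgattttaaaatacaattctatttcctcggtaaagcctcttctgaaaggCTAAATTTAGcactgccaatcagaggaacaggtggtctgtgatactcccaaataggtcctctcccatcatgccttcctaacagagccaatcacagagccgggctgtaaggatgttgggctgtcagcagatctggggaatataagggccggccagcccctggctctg
Myoz2: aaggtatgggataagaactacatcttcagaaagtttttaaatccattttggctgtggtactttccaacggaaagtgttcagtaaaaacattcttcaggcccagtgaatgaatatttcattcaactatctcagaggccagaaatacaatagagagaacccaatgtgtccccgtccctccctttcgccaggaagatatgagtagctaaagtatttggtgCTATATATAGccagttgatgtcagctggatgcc

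Genes of motile cilia are known as targets of RFX factors, whose X-box begins with GTTGCC. These 6 letters, on either strand, lay in the windows of 43 of 82 genes of the ciliated and transport lists (52.4%), of 11 of the 54 genes higher with all arrays (20.4%) and of 17 of 59 genes that were lower with the first control array left out (28.8%), where 14% of all genes held them. The longer form, GTTGCC followed by any 2 bases, GG, any base and AAC, contains the shorter and lay in 1 of the 59 (1.69%) and in 0.391% of all genes. Efcab10 (chr12:33394604-33394853, plus strand) and Tekt1 (chr11:72361883-72362132, minus strand, 1 of 2 windows of the gene) are shown as lower genes with the short motif, in capitals in either orientation. Tekt1, a tektin of the ciliary microtubules, read 8.56, 8.90 and 9.16 in control and 8.29, 8.26 and 8.50 in Cebpa d/d arrays.
Efcab10: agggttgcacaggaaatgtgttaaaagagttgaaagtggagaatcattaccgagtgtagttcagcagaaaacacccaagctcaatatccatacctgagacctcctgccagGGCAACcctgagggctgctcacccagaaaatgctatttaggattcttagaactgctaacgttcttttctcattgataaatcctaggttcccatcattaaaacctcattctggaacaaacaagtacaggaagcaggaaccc
Tekt1: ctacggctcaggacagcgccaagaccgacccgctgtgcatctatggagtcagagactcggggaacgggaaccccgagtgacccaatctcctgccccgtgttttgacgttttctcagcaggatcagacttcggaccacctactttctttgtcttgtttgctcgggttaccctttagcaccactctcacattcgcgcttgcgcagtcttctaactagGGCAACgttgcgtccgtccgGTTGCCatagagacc

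The motif of C/EBP factors was searched as TTGCNNCAA on both strands. It lay in 4 of the 59 lower genes (6.78%), in 4 of the 54 genes that were higher with all arrays (7.41%) and in 2.12% of all genes. C6 (chr15:4726960-4727209, plus strand) is shown because it was lower at 0 and 3 hr and holds the pattern, in capitals. A match is a description of letters and shows no binding.
C6: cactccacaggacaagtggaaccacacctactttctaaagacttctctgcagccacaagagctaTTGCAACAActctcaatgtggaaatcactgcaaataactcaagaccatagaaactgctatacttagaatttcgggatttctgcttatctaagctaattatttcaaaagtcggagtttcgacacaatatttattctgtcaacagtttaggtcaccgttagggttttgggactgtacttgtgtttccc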

How the data were processed

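Total RNA of terminal bronchiolar epithelial cells was extracted with guanidinium thiocyanate, labelled with biotin and hybridised to 18 Affymetrix arrays, per the labels' protocols. The deposited table holds log2 values made by RMA, as the submitters' processing notes name it. Version, genome build and filters are not given in the sources used here. Scanner files were not used.

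Of 35557 probe sets 21789 had 1 gene symbol, 1621 several and 12147 none, and the last 2 kinds were left out. For 999 genes with several probe sets the one with the highest mean was kept, which left 19938 genes, of which 19856 matched RefSeq. A model of the 6 group means was fitted in R 4.3.3 with limma 3.58.1 to all 18 arrays (12 residual degrees of freedom, 4.49 added by moderation), and to 17 with the array labelled control 0 hr replicate 1 left out (11 and 4.64). Benjamini-Hochberg adjustment ran over all genes, with a threshold of 0.05, and the scripts were tested on simulated data. No 2 arrays were identical, and 0 hr arrays correlated at 0.9775 or more across probe sets.

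Genes were named by rule: Cebpa, the 12 largest differences in each direction among genes that passed without overlap, up to 4 genes per list with the smallest p in each comparison, the 5 smallest p of each comparison of times, and set anchor genes. Other list members are named for their role, and further genes after their values were seen. The comparison, the lists and the tests were chosen with earlier results of these data known. Alternatives changed the filter, the collapse of probe sets, the variance model, array weights, sex, a replicate block, the samples in the model, centring, the threshold and each array in turn.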

Additional observations from a re-analysis of the deposited data

Results flagged for a closer look

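The genotype difference at 72 hr differed from that at 0 hr by a test of the difference itself in 19 genes, all in the negative direction and with all arrays included. Of these, 14 were genes of muscle or of its energy supply that were higher in Cebpa d/d at 0 hr and did not pass at 72 hr. The difference at 72 hr less that at 0 hr was -2.71 for Pgam2, -2.61 for Ttn, -2.49 for Myl3, -2.42 for Csrp3, -2.10 for Lmod2, -2.03 for Txlnb, -1.95 for Tcap, -1.93 for Xirp2 and -1.91 for Actn2. It was -1.47 for Eno3 and for Tecrl, -1.39 for Myom1, -1.25 for Mybphl and -1.05 for Tmod1. The other 5 genes did not pass at 0 hr and were lower at 72 hr: -3.37 for Spink5, an inhibitor of proteases, -2.26 for the acute-phase protein Orm2, -2.07 for Sectm1b, -1.47 for the histone gene H3c15, which shares sequence with its copies, and -1.19 for Cd7. With the array labelled control 0 hr replicate 1 left out, 3 of the 19 passed: Spink5, Myom1 and Pgam2.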

How the results depend on the processing

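The count of genes at 0 hr with all arrays (67) was 29 without genes below the median level, 355 with array weights, 1 with only the 0 hr groups in the model, 271 for a change of 1.5-fold or more at an unadjusted p under 0.05, and 30 to 153 when each 0 hr array was left out in turn, with 153 for the array labelled control 0 hr replicate 1. It was 201 with that control array and replicate 1 of Cebpa d/d at 72 hr both left out, an alternative chosen after seeing the data. Correlations of deviations between same-numbered replicates (0.062, -0.283 and 0.153) lay within the range of the other pairs (-0.343 to 0.288). Whether a number stands for a shared litter or day was not tested, and a replicate block gave 62 genes. The count without the array labelled control 0 hr replicate 1 (153) was 84 with a replicate block, 75 with only the 0 hr groups, 518 at the unadjusted threshold, and 11 to 263 when a further 0 hr array was left out, with 11 for control replicate 3. The number of genes whose difference changed between 3 and 0 hr (0) was 24 with array weights, 289 at the unadjusted threshold and 0 to 44 with arrays left out. Between 72 and 0 hr (19) it was 8, 69, 4 and 286 under the low-level filter, array weights, only the groups compared and the unadjusted threshold, and 3 to 48 with arrays left out. The cause of these changes was not tested. Cardiac genes higher at 0 hr (33) numbered 1 with only the 0 hr groups, 43 with array weights and 19 to 37 with an array left out. Ciliated genes lower at 0 hr (1) numbered 22 with array weights and 7 with that first control array left out. Their number was 0 with a replicate block and with only the 0 hr groups. It was also 0 without control replicate 3 and without Cebpa d/d replicates 1 or 2. Of 194 named genes 22 passed, 0 of these reversed under any alternative and 1 passed under all. A further 38 passed only under some alternative, and 28 that did not pass changed sign.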
